A study of Mus musculus with 6 samples.

Results

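The microtubule and growth cone genes described here are Tubb3, Map2, Mapt, Map1b, Dcx, Stmn2, Stmn3, Gap43, Dpysl3 and Crmp1, chosen by name as genes that neurons use to build and steer axons and dendrites. All 10 were found among the 19613 genes of the deposited table, 8 under their current symbols and 2 (Map2 and Map1b) under the older names Mtap2 and Mtap1b. The 6 samples, each read on an Affymetrix exon array, were embryoid bodies (EBs), aggregates of HGB3 mouse embryonic stem cells that had been induced to form spinal motor neurons. The stem cells carry an HB9-eGFP reporter, which lights up motor neurons, and only part of the cells of an EB are motor neurons. Every culture had been exposed to blood fluid, called plasma in the sample labels and serum in the study, from male carriers of the strain B6CBA-Tg(HDexon1)62Gpb/3J, a model of Huntington's disease that expresses a fragment of human huntingtin, taken before the onset of symptoms. The 6 arrays form a single group with the replicate numbers 2, 4, 5, 6, 7 and 8, and no control arrays were analysed here. The values therefore give the level of each gene under this fluid and its spread between arrays, and they give no response to the fluid. Nothing in the labels says which sera, cultures or array batches the replicates came from, so the spread may be partly technical.

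Microtubules are hollow filaments of alpha- and beta-tubulin that fill axons and dendrites, carry cargo and push the growing tip, the growth cone, forward. Tubb3 encodes the beta-tubulin isotype used as a general marker of neurons. Map2 (dendrites), Mapt, which encodes tau (axons), and Map1b (growing axons) are proteins that bind and stabilize microtubules, and Dcx encodes doublecortin, a microtubule-binding protein of migrating and newly born neurons. Stmn2 and Stmn3 encode neuronal stathmins, which bind tubulin dimers and promote disassembly of the filament. Gap43 encodes a membrane protein of growth cones, and Dpysl3 and Crmp1 encode collapsin response mediator proteins, which relay guidance signals to the cytoskeleton. Because these genes are switched on as progenitors become neurons, their summed signal in a mixed culture is often read as a measure of neuronal content. In bulk samples such as these, fewer neurons and less RNA per neuron cannot be told apart.

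The stretches directly upstream of the transcription start are shown for Tubb3 and Map1b, members that varied together between arrays, and for Stmn3, the member that did not follow them. They are RefSeq sequences of the build GRCm38.p6, 250 bases each, printed 5′ to 3′ on the strand of the gene, with matches to the GC box GGGCGG on either strand in capitals. They lie at chr8:123411303-123411552 on the plus strand, chr13:99516603-99516852 on the minus strand and chr2:181314501-181314750 on the minus strand.
Tubb3: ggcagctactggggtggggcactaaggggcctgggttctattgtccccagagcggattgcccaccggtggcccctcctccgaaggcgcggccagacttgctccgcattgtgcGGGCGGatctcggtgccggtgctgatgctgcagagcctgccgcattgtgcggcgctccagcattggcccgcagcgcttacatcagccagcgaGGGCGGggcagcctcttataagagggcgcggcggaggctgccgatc
Map1b: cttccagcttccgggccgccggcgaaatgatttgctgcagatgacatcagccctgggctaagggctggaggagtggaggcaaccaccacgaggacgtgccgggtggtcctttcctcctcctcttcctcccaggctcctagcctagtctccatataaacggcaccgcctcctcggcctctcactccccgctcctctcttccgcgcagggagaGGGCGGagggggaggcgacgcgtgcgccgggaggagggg
Stmn3: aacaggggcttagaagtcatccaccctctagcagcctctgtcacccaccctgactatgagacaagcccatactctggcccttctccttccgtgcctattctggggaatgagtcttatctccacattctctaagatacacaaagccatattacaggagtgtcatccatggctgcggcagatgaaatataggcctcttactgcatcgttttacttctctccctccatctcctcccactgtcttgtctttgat
The windows of Tubb3, Map1b and Stmn3 held 2, 1 and 0 matches, and their GC contents were 68.0%, 66.4% and 48.8%. RefSeq windows were at hand for 6 members, 8 windows in all, of which the 2 of Dcx overlap. GGGCGG was found in 5 of these 8, those of Tubb3, Map2 and Map1b and both of Crmp1, against 32.7% of all 32851 windows of the same length. Both windows of Dcx, a member that also varied with Tubb3 between arrays, held 0 matches, with GC contents of 41.6% and 44.8%. The E-box CANNTG, which reads the same on both strands, was found in 3 of the 8, against 66.2% of all windows. These were the windows of Map1b and Stmn3 and 1 of those of Crmp1. A match to these letters is a description of the window and does not show that a factor binds there.

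The members were among the brightest genes of the cultures. Background was set at a log2 intensity of 7.47, below which 95% of 1033 olfactory receptor genes had their means, most of them being silent outside olfactory tissue. All 10 members were above this level, as were 65.2% of all genes. In 9 of the 10 the mean exceeded that of at least 97.7% of genes, and Mapt stood apart with 76.1% of genes below it. These percentiles rank intensities, and since probes differ in affinity they do not rank transcript amounts between genes.

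Tubb3 had log2 intensities of 12.80, 12.73, 12.75, 12.79, 12.87 and 12.93 in replicates 2, 4, 5, 6, 7 and 8, and a mean of 12.81 ± 0.076 (SD, n = 6). It was highest in replicate 8 and lowest in replicate 4, and 99.6% of genes had a lower mean. Beta-tubulins are close in sequence, and no step that separates signal between near-identical genes is stated for these values, so part of this signal may come from other isotypes.

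Among the microtubule-associated proteins, Map1b was the brightest member and the steadiest. Its log2 intensities in the same order of replicates were 13.10, 13.07, 13.09, 13.13, 13.13 and 13.15, with a mean of 13.11 ± 0.032 (SD, n = 6). Only 44 genes of the table had a higher mean, and its range over the arrays was 1.06-fold. Map2 had 11.84, 11.81, 11.81, 11.95, 11.97 and 11.95, with a mean of 11.89 ± 0.076 (SD, n = 6), and its arrays fell into a lower set (replicates 2, 4 and 5) and a higher set (replicates 6, 7 and 8). Mapt had 9.60, 9.43, 9.51, 9.46, 9.53 and 9.68, with a mean of 9.54 ± 0.091 (SD, n = 6), highest in replicate 8 and lowest in replicate 4. Its mean was 2.07 above the background level on the log2 scale, whereas the other 9 members were 4.15 to 5.64 above it. Dcx had 12.68, 12.59, 12.66, 12.63, 12.66 and 12.72, with a mean of 12.66 ± 0.043 (SD, n = 6).

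The stathmins held the widest spreads of the 10 members. Stmn2 had log2 intensities of 12.79, 12.67, 12.74, 12.81, 12.92 and 12.92, with a mean of 12.81 ± 0.099 (SD, n = 6), and replicates 7 and 8 exceeded replicate 4 most. Stmn3 had 12.27, 12.11, 12.08, 12.08, 12.32 and 11.94, with a mean of 12.14 ± 0.14 (SD, n = 6). Stmn3 was thus lowest in replicate 8, where 5 of the other members were at their highest, a range of 1.30-fold over the arrays.

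The growth cone and collapsin response genes were bright, and their SDs were below the median of the members. Gap43 had log2 intensities of 11.63, 11.56, 11.56, 11.61, 11.68 and 11.65, with a mean of 11.61 ± 0.049 (SD, n = 6). Dpysl3 had 12.27, 12.17, 12.21, 12.28, 12.34 and 12.28, with a mean of 12.26 ± 0.057 (SD, n = 6). Crmp1 had 11.95, 11.83, 11.90, 11.83, 11.94 and 11.96, with a mean of 11.90 ± 0.060 (SD, n = 6). Gap43 and Dpysl3 were highest in replicate 7 and Crmp1 in replicate 8, and all of them were low in replicate 4.

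**Figure D1:**
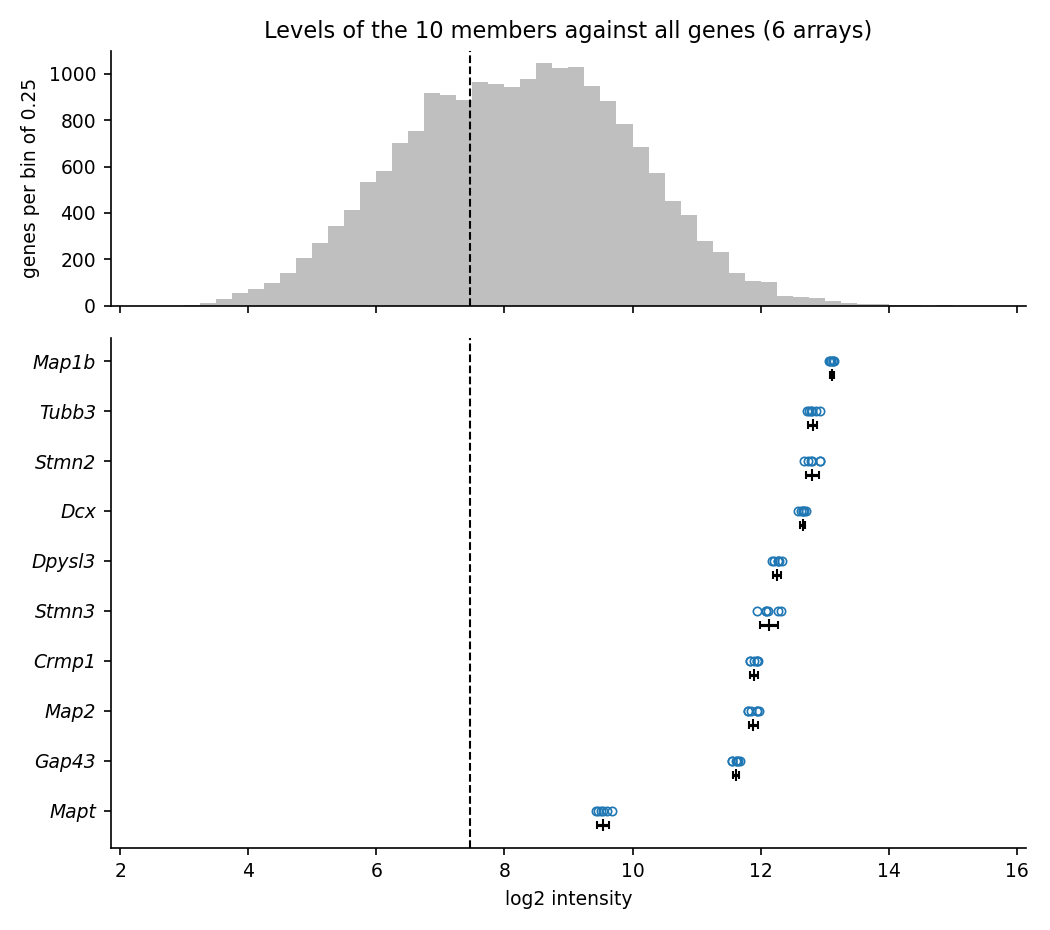
Upper panel, number of genes (y axis) by mean log2 intensity over 6 arrays (x axis), for all 19613 genes. Lower panel, the 6 arrays of each member as open circles, with the mean (tick) and SD (bar) drawn just below them, and the dashed line at the background level of 7.47. All members lie above background, 9 of them in the upper tail of the distribution and Mapt at 9.54.

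The replicate error of the members was small against their levels. In 7 of the 10 the SD was above the median of genes of like level, but for Dpysl3 and Crmp1 only just. Over the 10 members the median SD was 0.068 on the log2 scale. Coefficients of variation on the linear scale ran from 2.19% for Map1b to 9.80% for Stmn3. Each member was set beside the genes of its own level, with those above background split into 5 bins by their means. In the top bin, which holds 2559 genes with a median SD of 0.057 and every member except Mapt, 94.9% of genes had a smaller SD than Stmn3 and 85.8% a smaller SD than Stmn2. For Tubb3 and Map2 these shares were 71.5% and 71.7%, and for Map1b and Dcx 10.6% and 27.2%. For Crmp1, Dpysl3 and Gap43 they were 53.5%, 50.4% and 36.2%. Mapt lay in the next bin down, where the median SD was 0.064 and 78.4% of genes had a smaller SD.

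The next question was whether the members varied together from array to array, since such covariation is what their use as a measure of neuronal content assumes. The mean log2 intensity of the 10 members was 12.094, 11.997, 12.031, 12.057, 12.138 and 12.118 in replicates 2, 4, 5, 6, 7 and 8. The range of this mean was 0.14 on the log2 scale, or 1.10-fold. In replicate 4, 0 of the 10 members lay above their own mean and 7 were at their lowest. In replicates 7 and 8, 9 of 10 lay above their own mean, the exceptions being Mapt in replicate 7 and Stmn3 in replicate 8, and each of these arrays held the highest value of 5 members. The mean deviations of the members ran from -0.075 in replicate 4 to 0.065 in replicate 7. The 397 other genes with means between those of Gap43 and Map1b had median deviations from -0.011 to 0.019. These medians show that genes of this level were not shifted as a whole. They do not show how far other sets of 10 genes move, since a median over many genes hardly moves.

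**Figure D2:**
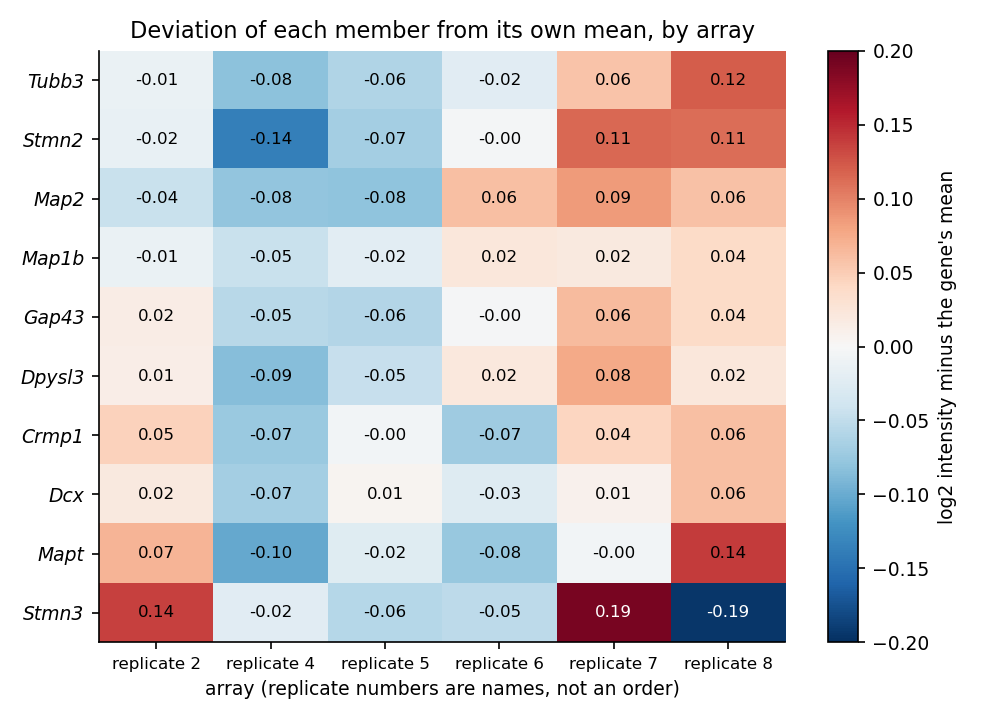
Log2 intensity of each member (rows) in each array (columns) minus the mean of that member over the 6 arrays, from lower (blue) to higher (red). Replicate 4 is low in every row, replicates 7 and 8 are mostly high, and Stmn3 departs with -0.19 in replicate 8.

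Between members, Pearson's r over the 6 arrays had a median of 0.73 over the 45 pairs, and 41 pairs were positive. An r over 0.8 was found in 16 pairs, or 35.6%. Over all pairs of the 12794 genes above background the median r was near 0 and 5.19% of pairs passed 0.8, and over pairs of the 397 genes of like level the median was 0.046 and 5.12% passed. These correlations are descriptions over 6 arrays that share their scaling, with no p, since the members were named with earlier results of these arrays known. The tightest pair was Tubb3 and Stmn2 at 0.95, followed by Mapt and Dcx and by Gap43 and Dpysl3, each at 0.94.

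The pattern was not uniform within the list. Tubb3, Stmn2, Map2, Map1b, Gap43 and Dpysl3 had a median r of 0.87 among themselves, with a lowest value of 0.75. Mapt, Dcx and Crmp1 had a median of 0.90 among themselves, with a lowest value of 0.90. Between these sets the median was 0.61 over 18 pairs, and the lowest r was 0.30, between Map2 and Mapt. Mapt, Dcx and Crmp1 were above their means in replicate 2 and below them in replicate 6. Map2 and Map1b ran the other way in both arrays, Gap43 had the signs of Mapt in both, and Tubb3, Stmn2 and Dpysl3 shared its sign in 1 of them. The sets were drawn after the values were seen, so they are a description and were not tested.

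Stmn3 was the exception. Its r with the other members ran from -0.21 with Map1b to 0.38 with Dpysl3, with a median of 0.041, and 5 of its 9 pairs were positive. This rests on replicate 8: without that array the median r of Stmn3 with the other members was 0.71, whereas without replicate 7 it was -0.29 and without replicate 5 it was -0.073. Without Stmn3 the median over the remaining 36 pairs was 0.78, and all 36 were positive. Replicate 8 also had the lowest quartile of intensity, 109 against 121 to 129 in the other arrays, and the lowest mean of the 7 non-neural markers above background, 8.06 against 8.16 to 8.35. The part of these differences in the low Stmn3 value was not tested. The 5 genes above background whose pattern was most like that of Stmn3, a list added after its values were seen, were Zfp108, Mapk8ip1, Fam187b, Top2a and 1700110I01Rik, with r from 0.980 to 0.997 over 6 arrays.

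**Figure D3:**
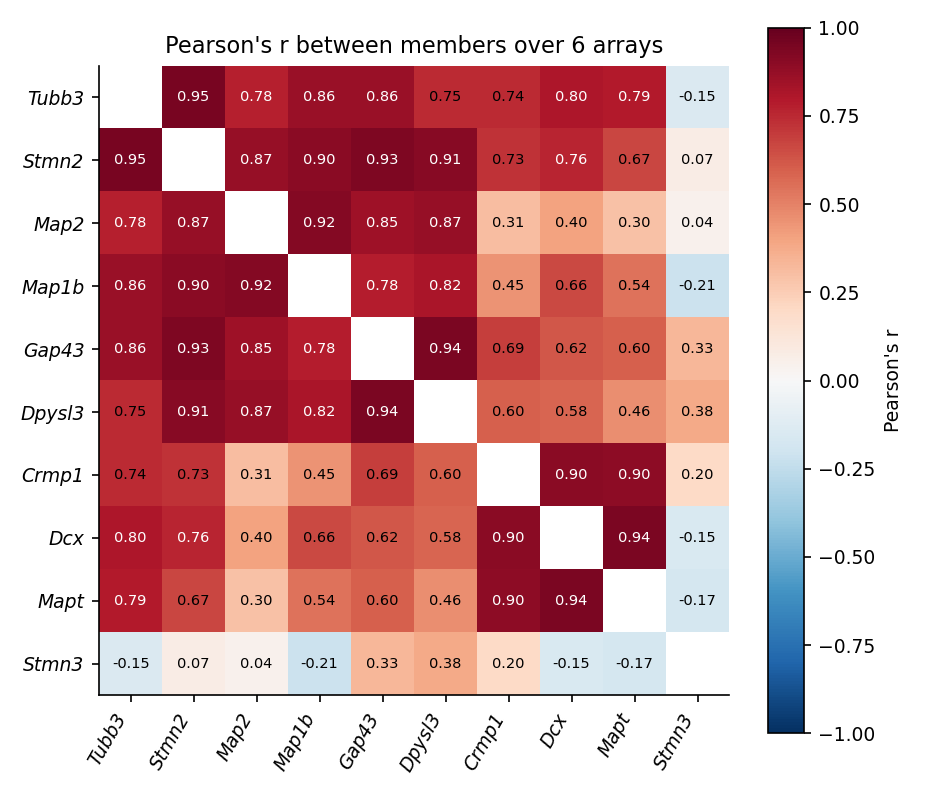
Pearson's r over the 6 arrays for each pair of members, from -1 (blue) to 1 (red), with members on both axes. The 6 members from Tubb3 to Dpysl3 and the 3 from Crmp1 to Mapt form blocks of high r, and the row of Stmn3 stays between -0.21 and 0.38.

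To ask which cell content the members followed, each gene above background was regressed on an index over the 6 arrays with limma, and p-values were adjusted over all genes tested. The pan-neuronal index was the mean log2 intensity of 15 neuronal genes that are not members, such as Elavl3 and Elavl4 (neuronal RNA-binding proteins), Snap25 (vesicle fusion) and Nefl (neurofilament light chain). Its values were 11.10, 11.02, 11.07, 11.10, 11.14 and 11.19 in replicates 2, 4, 5, 6, 7 and 8, so it was lowest in replicate 4 and highest in replicate 8. The motor neuron index averaged the transcription factor genes Isl1, Lhx3, Mnx1 and Olig2, from which the study modelled differences between batches of neurons, and the cycling index was the mean of 11 genes of dividing cells such as Mki67 and Top2a.

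Of the members, 9 of 10 had a positive r with the pan-neuronal index, and the median r was 0.83, against a median of -0.052 over all genes tested and 46.5% of them positive. By limma with Benjamini-Hochberg adjustment, however, 0 of 12779 genes (0%) passed an adjusted p of 0.05, and the lowest adjusted p among members was 0.218, for Stmn2. At an unadjusted p under 0.05 limma picked out 5 of the 10 members (Tubb3, Map2, Mapt, Stmn2 and Dpysl3) and 852 genes in all, or 6.67%. The two-sided exact permutation test over 720 pairings passed 0 genes after adjustment and 883 before it. The 5 members it picked out before adjustment were Tubb3, Map1b, Dcx, Stmn2 and Gap43, so only Tubb3 and Stmn2 were picked out by both tests. With 6 arrays the smallest exact p is 0.00139. Tubb3 reached it in the exact permutation test and still had an adjusted p of 0.378. A gene could pass this test after adjustment only if many more genes shared the smallest p. Its 0 after adjustment, here and for the motor neuron and cycling indices, therefore adds nothing to that of limma.

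Tubb3 followed the index most closely. Its slope was 0.074 ± 0.017 (log2 per SD of the index, SE) with an adjusted p of 0.307 by limma. Its Pearson's r was 0.97 (exact permutation p 0.00139, the smallest possible, adjusted p 0.378) and its Spearman's rho was 1 (exact p 0.00278). Without replicates 4 and 8, the lowest and highest arrays of the index, r was 0.998. Stmn2 had a slope of 0.095 ± 0.018 (log2 per SD of the index, SE), an r of 0.96 (exact permutation p 0.00556, adjusted p 0.470) and a rho of 0.89 (exact p 0.0333), and its r was 0.99 without these arrays.

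For 7 other members r lay between 0.76 for Crmp1 and 0.91 for Map1b, with rho from 0.66 for Map2 to 0.89 and exact permutation p from 0.0125 to 0.0750, all with adjusted p of at least 0.534. Part of these relations rested on the outer arrays. Without replicates 4 and 8, r was 0.97 for Gap43, 0.98 for Dpysl3, 0.82 for Map2 and 0.68 for Map1b, but 0.43 for Crmp1, 0.14 for Mapt and 0.13 for Dcx. Stmn3 had an r of -0.15 (exact permutation p 0.819, adjusted p 0.973) and a rho of -0.029 (exact p 1), and its slope of -0.021 turned to 0.078 without replicate 8. Without replicates 4 and 8 its r was 0.81.

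**Figure D4:**
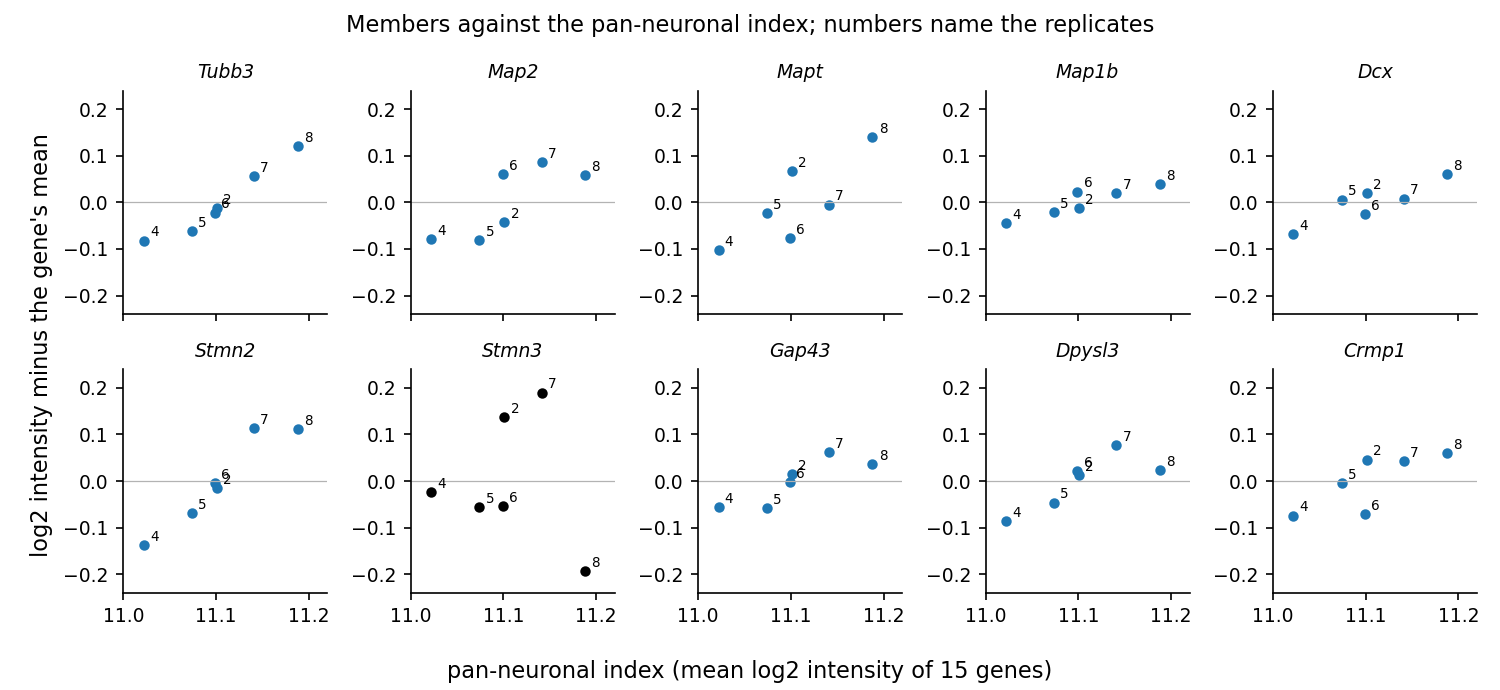
Log2 intensity of each member minus its own mean (y axis) against the pan-neuronal index, the mean log2 intensity of 15 neuronal genes (x axis), with 1 point per array labelled by its replicate number. Tubb3 climbs with the index over all arrays and Stmn2 nearly so, Dcx and Mapt climb mainly between replicates 4 and 8, and Stmn3 falls away in replicate 8.

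The motor neuron index did not order the arrays in this way. Its r with the pan-neuronal index was 0.083, and its r with the members ran from -0.76 for Stmn3 to 0.30 for Dcx, with a median of -0.070. By limma 0 of 12790 genes (0%) passed an adjusted p of 0.05, and 581 genes (4.54%) with 1 member, Stmn3, had an unadjusted p under 0.05, while the exact permutation test passed 0 genes after adjustment and 603 before it. For Stmn3 the rho of -0.94 had an exact p of 0.0167 and the r of -0.76 an exact permutation p of 0.0833, and the adjusted p of the latter was 0.999. Its r became -0.92 once replicates 5 and 8, which held the highest values of this index, were left out, and without replicate 7, which held the lowest, 0 members had an unadjusted p under 0.05. The genes of the index went different ways. Isl1, a factor of motor neurons that have left the cell cycle, had an r of 0.89 with the mean of the members, whereas Olig2, a factor of motor neuron progenitors, had -0.75, Lhx3 had -0.69 and Mnx1 had -0.016 (n = 6 arrays, a description).

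With the cycling index, 9 of 10 members had a positive r, with a median of 0.44. Over all genes tested the median was -0.018, and 48.25% were positive. The cycling index had an r of 0.59 with the pan-neuronal index. By limma 0 of 12783 genes (0%) passed an adjusted p of 0.05, and 0 members and 416 genes (3.25%) had an unadjusted p under 0.05. The exact permutation test passed 0 genes after adjustment and 440 before it, and the lowest exact permutation p of a member was 0.174, for Stmn2 with an r of 0.64.

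Other genes of the microtubule and growth cone machinery were examined in 7 lists that hold no member. Of 124 genes, 123 were matched and 121 were above background. Their r with the mean of the members had a median of 0.41, against -0.053 over all 12784 other genes above background. It was over 0.8 for 12 of the 121, or 9.92%, against 2.75% of all, and under 0 for 25.6% against 54.2%. In the limma regression on the pan-neuronal index, 0 of the 121 passed an adjusted p of 0.05, and 17 with a positive and 1 with a negative slope had an unadjusted p under 0.05, to be read against the 6.67% above.

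Of the tubulins, 17 of 18 were above background, and Tubb1, the isotype of platelets, was below it at 7.27. The alpha-tubulins Tuba1b, Tuba1a and Tuba1c had log2 intensities of 14.10 ± 0.030, 13.58 ± 0.037 and 13.20 ± 0.054 (SD, n = 6). Of the 17, Tuba1a, the main alpha-tubulin of newly born neurons, was the only tubulin with an r over 0.8 with the members, at 0.90. Among beta-tubulins, Tubb5 had 13.19 ± 0.061, Tubb2b 12.91 ± 0.14 and Tubb2a 11.86 ± 0.063 (SD, n = 6), with r of 0.50, 0.47 and 0.78. Among the tubulins above background Tuba8 had the largest SD, at 9.26 ± 0.20, and an r of -0.38. Tubulin genes are near-identical in places, so these values are uncertain as to which copy they measure.

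The paralogues of members differed in how closely they followed the mean of the members. Stmn1, the stathmin that dividing cells also use, had 12.33 ± 0.069 and an r of 0.17 with the members, and Stmn4 had 9.96 ± 0.087 and an r of 0.68 (SD, n = 6). Dpysl2 and Dpysl5 had 12.65 ± 0.073 and 11.82 ± 0.066, with r of 0.61 and 0.75, and Dpysl4 had 10.41 ± 0.057 with an r of 0.16 (SD, n = 6). The doublecortin-like kinase Dclk1 had 10.42 ± 0.13 and an r of 0.93, whereas Dclk2 had 9.72 ± 0.046 and an r of -0.14. Map1a, the relative of Map1b in mature neurons, had 8.57 ± 0.10 and an r of 0.80, Map1s had 9.21 ± 0.086 and an r of -0.19, and Map4, used by many non-neuronal cells, had 11.46 ± 0.050 and an r of -0.52.

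Of the 24 matched microtubule-associated and end-binding genes, all were above background and 5 had an r over 0.8 with the members. These were Mapre2 at 0.96, Map7 at 0.93, Dclk1, Tppp3 at 0.88 and Clasp2 at 0.83, and 7 of the 24 had an r under 0. The brightest were Map4, Tppp3 at 11.42 ± 0.092 and Clasp1 at 11.34 ± 0.081, and Tppp at 7.72 ± 0.16 had the largest SD (n = 6). Of 23 growth cone membrane and actin genes, 4 passed 0.8, namely L1cam at 0.93, Enah at 0.92, Ablim1 at 0.91 and Nrcam at 0.84. The adhesion proteins L1cam and Nrcam sit on growing axons, and Enah remodels actin at the growth cone edge. The brightest genes of this list were Cfl1 at 13.13 ± 0.072, Pfn1 at 12.24 ± 0.086 and Ncam1 at 12.10 ± 0.043, and Tmod2 at 10.60 ± 0.14 had the largest SD (n = 6). Basp1 and Marcks, membrane proteins of growth cones that are handled much like Gap43, did not follow the members, with 11.69 ± 0.032 and an r of -0.81 for Basp1 and 11.60 ± 0.043 and an r of -0.15 for Marcks.

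Of the 20 axonal motor genes 19 were above background, the exception being Dync1i1 at 7.36. The kinesins Kif5c and Kif1a, which carry cargo along axons, had r of 0.93 and 0.91 with the members. The median r of the 19 was 0.47, and 6 of them had an r under 0. The brightest motors were Dync1h1 at 11.42 ± 0.032, Kif1b at 11.36 ± 0.055 and Klc1 at 11.34 ± 0.12, the last with the largest SD of the list (n = 6). Of 18 genes that fold, modify or sever tubulin, 0 passed 0.8, and the median r was 0.40. The brightest of these were Atat1 at 11.33 ± 0.045, Ttll1 at 11.02 ± 0.045 and Tbce at 10.22 ± 0.047, while Tbcb at 9.05 ± 0.22 had the largest SD (n = 6). Of 15 spindle genes, which serve microtubules in dividing cells, 0 passed 0.8 and the median r was 0.14. Kif11, Nusap1 and Numa1 were the brightest of them at 10.33 ± 0.033, 10.11 ± 0.056 and 10.09 ± 0.026, and Kif23 at 9.38 ± 0.13 had the largest SD (n = 6).

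**Figure D5:**
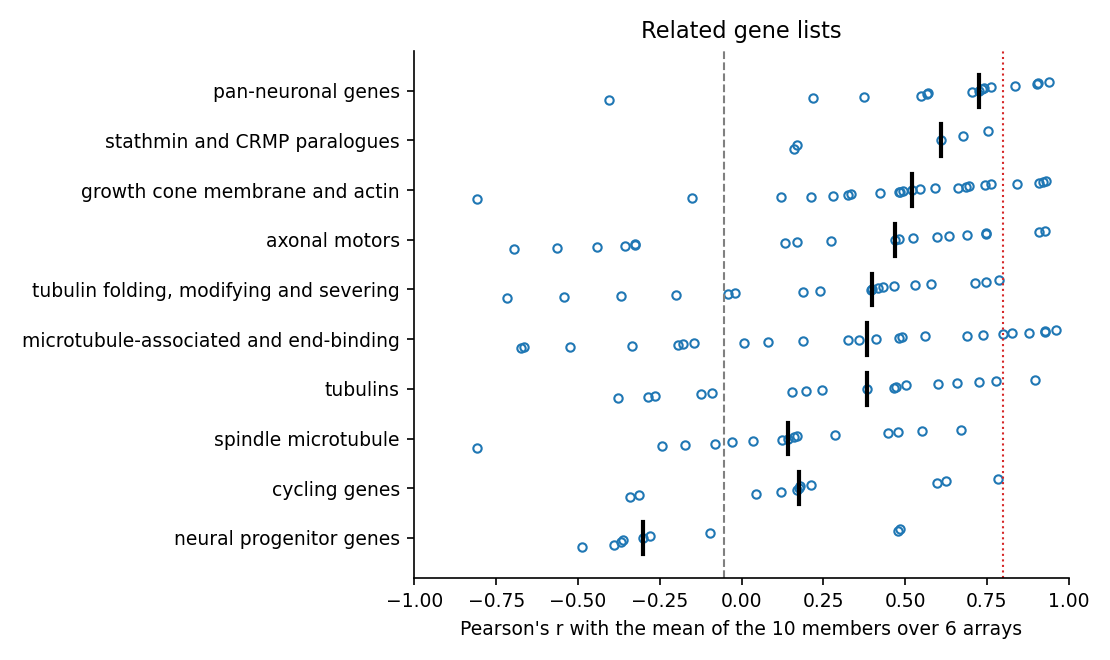
Pearson's r over 6 arrays (x axis) between each gene above background (open circle) and the mean of the 10 members, by list (rows), with the median of each list as a black bar. The dashed line marks the median of all other genes above background (-0.053) and the dotted line an r of 0.8; the medians of the 10 lists drawn, which leave out the motor neuron index and the other marker lists, run from 0.72 for pan-neuronal genes to -0.30 for neural progenitor genes.

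The 5 genes most like the mean of the members, by Pearson's r over the 6 arrays among 12784 genes, were Ddah1, Sgo1, Gnao1, Shd and Chl1, with r from 0.98 to 0.99. Gnao1 encodes a G protein subunit abundant in neurons and growth cones, and Chl1 an adhesion protein of the L1 family. Ddah1 and Sgo1 ranked above both of these. The list was ranked by r alone and was not tested for neuronal genes. An r over 0.95 was found in 45 genes.

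Markers of cell types gave the setting of these values. All 8 matched motor neuron markers were above background, among them Chat, the enzyme of acetylcholine synthesis, at 9.42 ± 0.097 (SD, n = 6). Neural progenitor markers were above background in 9 of 10. Above background were 4 of 5 astrocyte, 4 of 6 oligodendrocyte, 2 of 6 pluripotency, 7 of 10 non-neural and 1 of 3 blood markers. The share over all genes was 65.2%, so these counts do not by themselves show that such cells were present. Among those above background, the median r with the mean of the members was 0.19 for motor neuron markers, with 2 of 8 over 0.8 and 2 under 0. It was -0.30 for progenitor, -0.12 for astrocyte, -0.048 for oligodendrocyte, -0.53 for pluripotency, -0.25 for non-neural and -0.19 for blood markers, against -0.053 over all genes. Over all matched genes of each list, the mean level across arrays ran from 10.29 to 10.35 for progenitors, 8.03 to 8.21 for astrocytes, 7.74 to 7.85 for oligodendrocytes, 7.68 to 7.80 for pluripotency, 7.54 to 7.88 for non-neural cells and 6.82 to 6.98 for blood. Their part in the variation of the members was not tested.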

How the data were processed

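The 6 arrays of a single group were used. For each gene the authors deposited a linear intensity per array. The labels name Expression Console and Robust Multi-array Averaging, and the methods, written for other arrays of the study, took the mean over the exons of a gene. Those methods end in a log2 ratio to a level predicted from motor neuron genes, which these linear intensities are not. Which arrays were normalized together is not given in the sources used here. The table held 0 columns of other samples. Names were matched to a RefSeq table of GRCm38.p6 (17533 as symbols, 1778 as synonyms, 302 unmatched), and Clip2, Syt1, Rrm2, Slc18a3, Slc1a3, Hba-a1, Hbb-bt and Hbb-bs of the lists were not analysed here. Intensities were log2-transformed with no pseudocount, and background was the 95th percentile of olfactory receptor means. Each gene above background was regressed on each index, scaled to an SD of 1, with limma 3.58.1 (lmFit and eBayes with trend, R 4.3.3), leaving out the genes of the index and adjusting by Benjamini-Hochberg. This procedure was checked on simulated data. Exact permutation tests were two-sided over all 720 pairings. The number of arrays limits the precision. The p-values judge the relation of a gene to an index against the variation between these arrays, whose source is not known. Named genes were the members, the 3 brightest genes and the 1 with the largest SD of each list, those below background, named paralogues, and the 5 most like the members' mean. Genes with an r over 0.8 and the 5 genes most like Stmn3 were added to these after their values were seen. The members and lists were chosen with earlier results of these data known.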

Additional observations from a re-analysis of the deposited data

Results flagged for a closer look

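In 28 sets of 6 values (each member, the means of the members and of the lists), the distance from the outermost array to the next was divided by the whole range, and chance would pick out about 1.4 sets. None of the 10 members had an array that far out, with ratios from 0.10 for Crmp1 to 0.36 for Stmn3. The mean of the 4 oligodendrocyte markers above background was low in replicate 8, at 8.24, with a ratio of 0.652. The only blood marker above background, Cd68, was low in replicate 2, at 8.15, with a ratio of 0.706.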

How the results depend on the processing

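Leaving out each array in turn, the mean level of the members ran from 12.06 to 12.09, the number above background was 10 throughout, the median SD ran from 0.061 to 0.073, and the count of genes past an adjusted p of 0.05 was 0 for each index. The median r between members ran from 0.54 without replicate 4 to 0.82 without replicate 6, and over all pairs of genes it ran from -0.0015 to 0.0040. Under median centring, quantile normalization, Spearman's rho and linear intensities, the median r between members was 0.81, 0.72, 0.66 and 0.73, and the median over all pairs under median centring was 0.11. Slopes on the motor neuron index changed sign for several members. Under median centring they turned to 0.024 for Tubb3, 0.012 for Stmn2 and 0.017 for Crmp1, and under quantile normalization to 0.0027 for Tubb3, -0.0064 for Map1b and -0.0030 for Dcx. Slopes on the cycling index turned to -0.0059 for Dcx and 4.7e-05 for Stmn3 under quantile normalization. With 1 array left out, slopes on the motor neuron index ran from -0.029 to 0.036 for Tubb3, -0.036 to 0.020 for Map2, -0.013 to 0.041 for Mapt, -0.0058 to 0.018 for Map1b, -0.039 to 0.025 for Stmn2 and -0.015 to 0.012 for Crmp1. Those on the cycling index ran from -0.0072 to 0.068 for Mapt and -0.11 to 0.031 for Stmn3, and those on the pan-neuronal index from -0.059 to 0.078 for Stmn3. The cause was not tested. Members at an unadjusted p under 0.05 on the pan-neuronal index numbered 5, but 2 without replicate 4, 3 without replicate 7, 3 without the trend and 9 under median centring. All genes so picked numbered 852, but 1845 without replicate 4, 866 without replicate 7 and 1759 under median centring. For the motor neuron index they numbered 581, but 1048 without replicate 8, and for the cycling index 416, but 162 without replicate 4, 848 without replicate 8 and 1030 under median centring. On the motor neuron index the 1 member so picked, Stmn3, was lost without replicate 7 and by the exact permutation test. On the cycling index members so picked numbered 2 without replicate 2, 3 without replicate 5, 1 without replicate 7 and 2 under median centring. With 1 array left out, all genes so picked on this index ran from 162 to 848. An index without neurofilament genes, chosen after seeing the data, also passed 0 genes. No paired analysis was possible because there is 1 group.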
